A study of Macaca mulatta with 8 samples.

Results

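The proteasome genes were the rows of the count tables whose gene symbol starts with PSMA, PSMB, PSMC, PSMD, PSME, PSMF or PSMG followed by a digit. There were 48 of them among the 35432 genes listed. They hold the alpha and beta subunits of the 20S core, the ATPases and non-ATPase subunits of the 19S regulatory particle, the PA28 and PA200 activators, the inhibitor PSMF1 and the PSMG assembly chaperones. The 5 inducible members were PSMB8, PSMB9, PSMB10, PSME1 and PSME2. They were set against the 30 constitutive subunits of the 20S core and the 19S particle that passed the filter on low counts.

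The proteasome degrades proteins tagged with ubiquitin. Its barrel-shaped core cuts proteins into peptides, and the 19S particle recognises, unfolds and feeds the substrates. In cells exposed to interferons, and in many immune cells at rest, the catalytic subunits PSMB5, PSMB6 and PSMB7 are replaced in newly built cores by PSMB8, PSMB9 and PSMB10, which gives the immunoproteasome. PSME1 and PSME2 form PA28, a cap on the core that is induced with it and that changes which peptides reach MHC class I molecules. Microglia, the macrophages of the brain parenchyma, use both the degradation and the antigen-presenting functions of the proteasome.

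RNA was sequenced from primary microglia that had been isolated from the subcortical white matter of 4 adult rhesus macaques without neurological disease, and grown in medium with serum and M-CSF. The cells of each donor received uLPS, an ultrapure lipopolysaccharide that engages TLR4, at 10 µg/mL for 16 h. They received it either alone or after 1 h with 5 µM MRS2578, an antagonist of the nucleotide receptor P2RY6 that is selective but not fully specific. The donors were R07110, aged 13 years, R12016, aged 9 years, R02046, aged 19 years, and R14143, aged 6 years. This gave 8 libraries, 1 for each donor and condition, and none of them came from unexposed cells or from cells with MRS2578 alone. All values therefore compare uLPS+MRS2578 with uLPS within a donor, and no value measures what uLPS itself did to a proteasome gene.

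Total counts ran from 9231109 to 32790348 per library, so that 3 counts, the limit that a count of 0 allows for counting error only, were 0.0914 to 0.320 CPM, the count relative to the total count of the library scaled by edgeR's TMM factor. Of 10 microglia markers, 9 were at a mean of at least 1 CPM, and they summed to 4065 to 5548 CPM with uLPS and 3753 to 4905 CPM with uLPS+MRS2578. The lymphocyte and neutrophil lists each summed to under 1 CPM in every library, the highest being 0.518 CPM. Markers of endothelial or mural cells summed to 208 to 709 CPM with uLPS and 244 to 427 CPM with uLPS+MRS2578, astrocyte markers to 54.6 to 147 CPM and 61.7 to 151.5 CPM, and oligodendrocyte markers to 61.3 to 71.6 CPM and 64.7 to 75.8 CPM. Their part in the results was not tested. In RNA of whole cultures, fewer cells of a type and less RNA per cell cannot be told apart.

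The conditions of the R02046 libraries were in doubt. In the gene list that the study published with CPM values, 6 of the 8 columns matched the library of the same label, and the columns of R02046 matched each other's library. A match here means that the ratio of count to published CPM varied by at most 1.42e-06 over genes (coefficient of variation), against at least 0.361 for the next best library. The labels were kept, and each main result is also given with the conditions of the R02046 libraries exchanged and without that donor.

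Compared with uLPS alone, the inducible members had lower counts in the presence of MRS2578 in R07110, R12016 and R14143, while the median of the constitutive subunits was close to 0 on the log2 scale; none of these differences passed the adjustment over all genes. The median log2 CPM difference of the 5 inducible members was -0.44 in donor R07110, -0.65 in donor R12016, -0.29 in donor R14143 and 0.04 in donor R02046 as labelled. The median of the 30 constitutive subunits in the same donors was 0.09, 0.06, -0.04 and -0.19. The difference of these medians, inducible minus constitutive, was thus -0.54, -0.70, -0.25 and 0.23. R02046 was the donor in which the order of both groups turned, and its difference was -0.23 with its libraries exchanged. Over donors, the inducible minus constitutive difference was -0.31 ± 0.41 (SD, n = 4) as labelled, -0.43 ± 0.23 (SD, n = 4) with the R02046 libraries exchanged and -0.50 ± 0.23 (SD, n = 3) without R02046. As labelled and without R12016, it was -0.18. As labelled, the spread between donors was larger than the mean difference. No p-value is given for these summaries, because the members share a donor, a library and their choice.

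**Figure D1:**
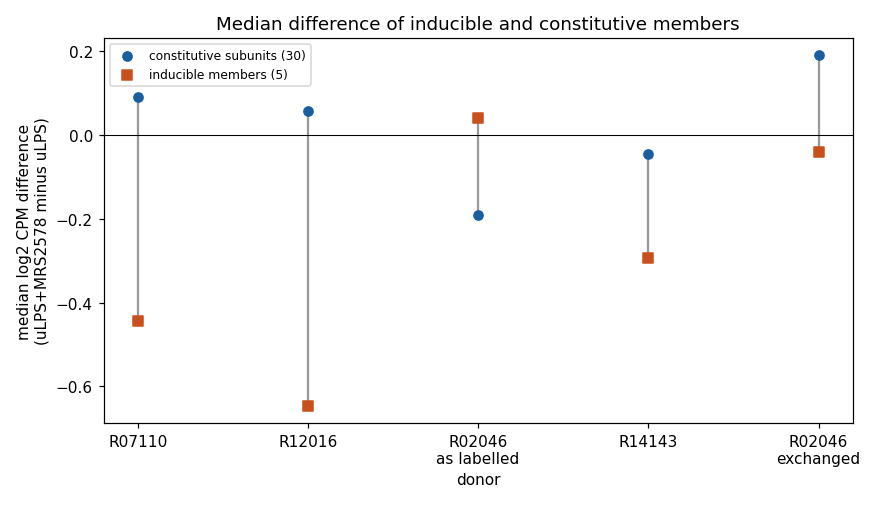
Median log2 CPM difference between uLPS+MRS2578 and uLPS (y axis) in each donor (x axis), for the 5 inducible members (orange squares) and the 30 constitutive subunits (blue circles). The last position repeats R02046 with its libraries exchanged; the squares lie below the circles in every position except R02046 as labelled.

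Each gene was tested by edgeR's quasi-likelihood test, blocked by donor, and p-values were adjusted by Benjamini and Hochberg's method over all genes tested. As labelled, 46 of the 48 members passed the filter and 0 had an adjusted p under 0.05, where 0% of the 12131 genes tested had one. At an unadjusted p under 0.05, 4 members were called, all lower with MRS2578, and none higher; over all genes tested, 2.44% were lower and 2.7% higher at that threshold. The 4 members were PSMB8, PSMB9, PSMB10 and PSME2. Without R12016 there was 1 member at that threshold, without R07110 or R14143 there were 2, and in a fit with no donor block there were 0. The number with an adjusted p under 0.05 was also 0 with DESeq2's Wald test and with edgeR's likelihood ratio test, and each of these gave 4 members at an unadjusted p under 0.05. For these other fits, the share of all genes at an unadjusted p under 0.05 is not given here. Their counts therefore do not set the members apart from other genes.

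With the R02046 libraries exchanged, 0.618% of all genes had an adjusted p under 0.05 and again 0 proteasome genes did. At an unadjusted p under 0.05, 4 members were lower and 4 higher, where 9.59% of all genes were lower and 6.86% higher. Without R02046, 0% of 12295 genes had an adjusted p under 0.05. At an unadjusted p under 0.05, 6 members were then lower and 1 higher, where 7.86% of all genes were lower and 5.73% higher. The 6 that were lower included all 5 inducible members. Over all genes tested, the median log2 fold change was -0.01 as labelled and 0.00 with the exchange.

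The groups also differed by direction in R07110, R12016 and R14143, but not in this way in R02046 as labelled. All 5 inducible members had negative differences in R07110, R12016 and R14143, where 19.8% of all genes did. Of the 30 constitutive subunits, 5 were lower in all of these donors and 8 were higher in all of them, where 17% of all genes were higher. In R07110, 4 of the 5 inducible members had a lower difference than every constitutive subunit, in R12016 also 4 and in R14143 3. In R02046 as labelled 0 of them did, and 27 of the 30 constitutive subunits were lower with MRS2578 there. Of the 12131 genes tested, 6068 were lower in R02046 as labelled. How many other genes lay below every constitutive subunit was not counted. The comparison with these subunits therefore does not set the inducible members apart from genes outside the proteasome. As labelled, the median SD between donors of the within-donor difference was 0.16 for the constitutive subunits. Over all genes tested it was 0.30. As labelled, 7 members were lower in all 4 donors, where 6.49% of all genes were. These were PSMB9, PSMB10, PSMA1, PSMA2, PSMB5, PSMC2 and PSMC3IP, and with the exchange the direction of R02046 turns for each of them.

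**Figure D2:**
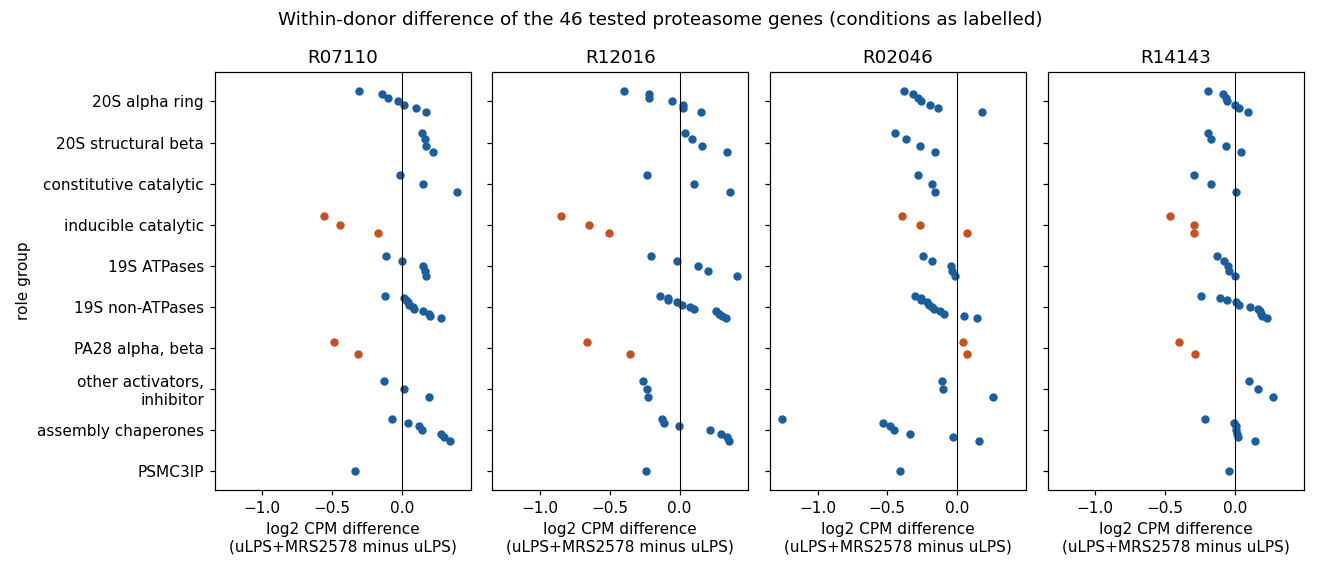
Log2 CPM difference between uLPS+MRS2578 and uLPS (x axis) of each of the 46 tested proteasome genes, 1 point per gene, by role group (y axis) and donor (panel), with conditions as labelled. The inducible catalytic subunits and PA28 alpha and beta (orange) lie at the left in R07110, R12016 and R14143; in R02046 most of the other genes (blue) lie left of 0.

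PSMB9, PSMB8, PSME2 and PSMB10, in this order, had the lowest log2 fold changes of the 46 tested members as labelled. PSMB8, also called LMP7, replaces PSMB5 and carries the chymotrypsin-like activity. In R07110, R12016, R02046 and R14143, in this order throughout, it was at 247, 594, 214 and 242 CPM with uLPS and at 168, 329.8, 225 and 198 CPM with uLPS+MRS2578. The uLPS library of R12016 stood far above the other libraries, and the value with MRS2578 was lower in every donor except R02046. The log2 fold change was -0.41 ± 0.16 (SE) as labelled (edgeR adjusted p = 0.878), -0.44 ± 0.13 with the R02046 libraries exchanged (adjusted p = 0.154) and -0.57 ± 0.13 without R02046 (adjusted p = 0.192). As labelled and without R12016, it was -0.26.

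PSMB9, also called LMP2, replaces PSMB6. It was at 46.2, 93.8, 51.0 and 38.3 CPM with uLPS and at 33.9, 59.9, 38.8 and 27.7 CPM with uLPS+MRS2578, lower with MRS2578 in 4 of 4 donors as labelled, with log2 differences of -0.44, -0.65, -0.39 and -0.47. These differences were close to each other, and R12016 had the highest level under both conditions. The log2 fold change was -0.49 ± 0.10 as labelled (edgeR adjusted p = 0.878), -0.30 ± 0.17 with the R02046 libraries exchanged (adjusted p = 0.411) and -0.52 ± 0.10 without R02046 (adjusted p = 0.160). The exons of PSMB9 overlap those of TAP1, a subunit of the peptide transporter, on the opposite strand, and, although the libraries were directional, the strand setting of the counting is not given in the sources used here, so reads of the genes cannot be told apart. The same holds for PSMB8 and an uncharacterised gene, LOC106997907.

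PSMB10, also called MECL-1, replaces PSMB7 and has trypsin-like activity. It was at 109, 164, 88.6 and 94.1 CPM with uLPS and at 97.1, 115, 73.5 and 76.9 CPM with uLPS+MRS2578. All 4 donors as labelled had the lower value with MRS2578, R12016 by the most and R07110 by the least. The log2 fold change was -0.31 ± 0.10 as labelled (edgeR adjusted p = 0.878), -0.18 ± 0.13 with the R02046 libraries exchanged (adjusted p = 0.531) and -0.32 ± 0.11 without R02046 (adjusted p = 0.297).

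The constitutive counterparts had no common direction. PSMB5, the chymotrypsin-like subunit, was at 103, 100.3, 117 and 113 CPM with uLPS and at 102, 85.1, 105 and 91.9 CPM with uLPS+MRS2578, a log2 fold change of -0.18 ± 0.09 (edgeR adjusted p = 0.878). PSMB6, with caspase-like activity, was at 88.2, 94.7, 112 and 97.3 CPM and 97.9, 102, 99.2 and 86.2 CPM, a log2 fold change of -0.02 ± 0.10 (edgeR adjusted p = 0.984). PSMB7, with trypsin-like activity, was at 138, 148, 209 and 162 CPM and 182, 189.9, 172 and 163 CPM, a log2 fold change of 0.12 ± 0.13 (edgeR adjusted p = 0.922). PSMB5 was lower with MRS2578 in every donor as labelled, PSMB6 higher in R07110 and R12016 and lower in the others, and PSMB7 higher in R07110 and R12016, nearly equal in R14143 and lower in R02046. With the R02046 libraries exchanged, the log2 fold changes were -0.10 for PSMB5, 0.06 for PSMB6 and 0.26 for PSMB7. The exons of PSMB7 overlap those of NEK6 on the opposite strand.

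**Figure D3:**
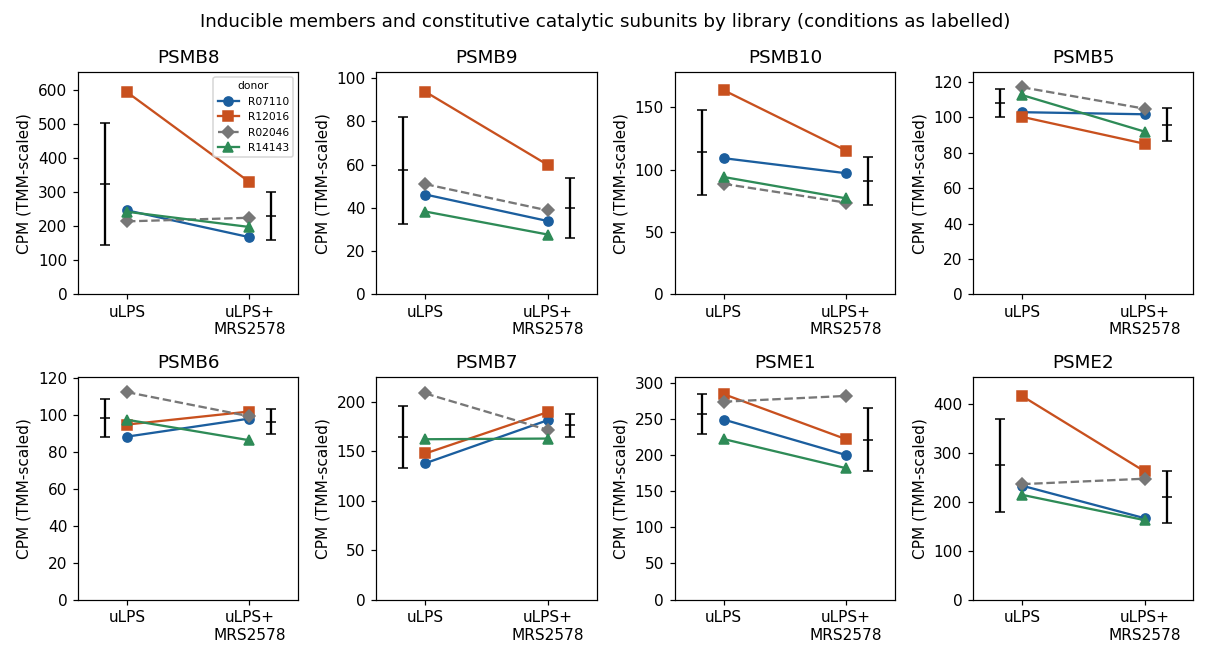
TMM-scaled CPM (y axis, from 0) of the 5 inducible members and of PSMB5, PSMB6 and PSMB7 with uLPS and uLPS+MRS2578 (x axis), with 1 line per donor; the dashed line is R02046 as labelled, and black bars are the mean ± SD of 4 donors. The lines of PSMB9 and PSMB10 go down in all 4 donors, those of PSMB8, PSME1 and PSME2 in R07110, R12016 and R14143, and those of PSMB7 go up or stay level outside R02046.

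The stretch before the transcription start is shown for PSMB10, the inducible gene whose window lay outside annotated exons, for its constitutive counterpart PSMB7, and for PSMB4, a constitutive gene that held one of the same motifs. Each is the 250 bases upstream of the start of the annotated gene in the RefSeq annotation of Mmul_10, on the strand of the gene. The window of PSMB10 lies at chr20:55155319-55155568 on the minus strand, PSMB7 at chr15:16266175-16266424 on the plus strand and PSMB4 at chr1:99705949-99706198 on the minus strand. Capitals mark matches, on either strand, to GAAANNGAAA, the core of the interferon-stimulated response element, to TTCNNNGAA, the gamma-activated site, and to the kappa-B consensus. The sequences read from 5′ to 3′, ending at the base before the start.
PSMB10: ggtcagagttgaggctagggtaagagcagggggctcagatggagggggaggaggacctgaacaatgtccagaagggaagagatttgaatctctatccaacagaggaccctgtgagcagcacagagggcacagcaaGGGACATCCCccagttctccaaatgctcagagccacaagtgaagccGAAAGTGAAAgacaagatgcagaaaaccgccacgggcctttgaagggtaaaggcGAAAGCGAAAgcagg
PSMB7: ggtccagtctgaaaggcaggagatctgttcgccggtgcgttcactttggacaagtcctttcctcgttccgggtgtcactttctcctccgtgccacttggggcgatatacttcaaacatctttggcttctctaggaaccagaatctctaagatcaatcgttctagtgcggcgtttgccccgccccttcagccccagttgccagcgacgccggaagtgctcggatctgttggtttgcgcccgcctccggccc
PSMB4: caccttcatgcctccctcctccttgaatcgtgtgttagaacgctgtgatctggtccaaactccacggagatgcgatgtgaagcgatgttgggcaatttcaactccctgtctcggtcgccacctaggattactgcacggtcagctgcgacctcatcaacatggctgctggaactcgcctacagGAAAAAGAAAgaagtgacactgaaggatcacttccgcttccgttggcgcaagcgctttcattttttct
PSMB10 held GAAANNGAAA at 69 and at 15 bases before the start and a kappa-B match at 115 bases, counted from the first base of the match. PSMB7 held none of these, and PSMB4 held GAAANNGAAA at 68 bases. Over all genes, the window was taken before the curated transcript that starts farthest upstream or, without one, before the annotated gene. Some windows, such as that of PSMA1, therefore lie inside the annotated gene. Of all 20782 windows of this length, 3.01% held GAAANNGAAA, 5.88% held TTCNNNGAA and 9.67% held the kappa-B consensus. Among the 48 members, GAAANNGAAA stood before 4 genes, PSMB10, PSMA4, PSMB4 and PSMG4, TTCNNNGAA also before 4, PSMA8, PSMC4, PSMD3 and PSME4, and the kappa-B consensus before 3, PSMB10, PSMA1 and PSMD4. TGACNNNGC, the core of the antioxidant response element that NFE2L1 and NFE2L2 bind, stood before 12 of the 48 members and 11% of all windows, and GAANNTTC, of the heat shock element, before 0 members and 4.97% of all windows. A match is a run of letters and not a measured site. The windows of PSMB8, PSMB9, PSME1 and PSME2 held no match to GAAANNGAAA, TTCNNNGAA or the kappa-B consensus, so that of PSMB10 does not stand for the inducible members. Those windows lie wholly or partly in annotated exons and are not printed.

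The PA28 genes PSME1 and PSME2, which lie close together on chromosome 7 at 86223236 to 86227935 and 86230950 to 86234260, had the same pattern over donors as PSMB8. PSME2, PA28 beta, was at 232, 415, 236 and 214 CPM with uLPS and at 166, 262, 247 and 162 CPM with uLPS+MRS2578. Its log2 fold change was -0.37 ± 0.13 as labelled (edgeR adjusted p = 0.878), -0.41 ± 0.11 with the R02046 libraries exchanged (adjusted p = 0.132) and -0.52 ± 0.10 without R02046 (adjusted p = 0.160). PSME1, PA28 alpha, was at 249, 284, 274 and 222 CPM with uLPS and at 199.7, 222, 282 and 182 CPM with uLPS+MRS2578, a log2 fold change of -0.23 ± 0.10 as labelled (edgeR adjusted p = 0.878), -0.25 ± 0.09 with the R02046 libraries exchanged (adjusted p = 0.216) and -0.32 ± 0.09 without R02046 (adjusted p = 0.245). Both had lower values with MRS2578 in all donors but R02046, and slightly higher in R02046 as labelled. The exons of PSME1 overlap those of EMC9 on the opposite strand. For each of the 5 inducible members, the values with uLPS overlapped those with uLPS+MRS2578 between donors, so that the lower values were seen within donors.

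The ratio of an inducible member to another proteasome gene compares genes of one library, so library scaling does not enter it. Counts were divided by the median length of the annotated transcripts. With uLPS, PSMB8 was at 2.38 ± 1.48 times PSMB5 (mean ± SD, n = 4), PSMB9 at 0.376 ± 0.173 times PSMB6 and PSMB10 at 0.673 ± 0.274 times PSMB7. With uLPS+MRS2578, these ratios were 1.90 ± 0.755, 0.262 ± 0.0772 and 0.474 ± 0.0722. Within donors, the log2 change of the ratio of PSMB9 to PSMB6 was -0.60, -0.75, -0.21 and -0.29, a mean of -0.46 ± 0.25 (SD, n = 4) as labelled, -0.36 ± 0.43 with the exchange and -0.55 ± 0.23 (n = 3) without R02046. That of PSMB10 to PSMB7 was -0.57, -0.87, 0.01 and -0.30, a mean of -0.43 ± 0.38 as labelled, -0.43 ± 0.37 with the exchange and -0.58 ± 0.29 (n = 3) without R02046. That of PSMB8 to PSMB5 was -0.54, -0.61, 0.23 and -0.00, a mean of -0.23 ± 0.41 as labelled, -0.34 ± 0.28 with the exchange and -0.38 ± 0.33 (n = 3) without R02046. Per length, PSMB8 was above PSMB5 in every library and came closer to it with MRS2578 in R07110 and R12016, and in R14143 their ratio was nearly equal in both libraries. Against PSME3, PA28 gamma, a nuclear activator that is not an interferon-induced subunit of PA28, the ratio of PSME2 changed by -0.50, -0.43, 0.18 and -0.56 and that of PSME1 by -0.33, -0.12, 0.15 and -0.45. Their means were -0.33 ± 0.34 and -0.19 ± 0.26 as labelled, -0.42 ± 0.17 and -0.26 ± 0.16 with the exchange, and -0.50 ± 0.07 and -0.30 ± 0.17 (n = 3) without R02046.

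**Figure D4:**
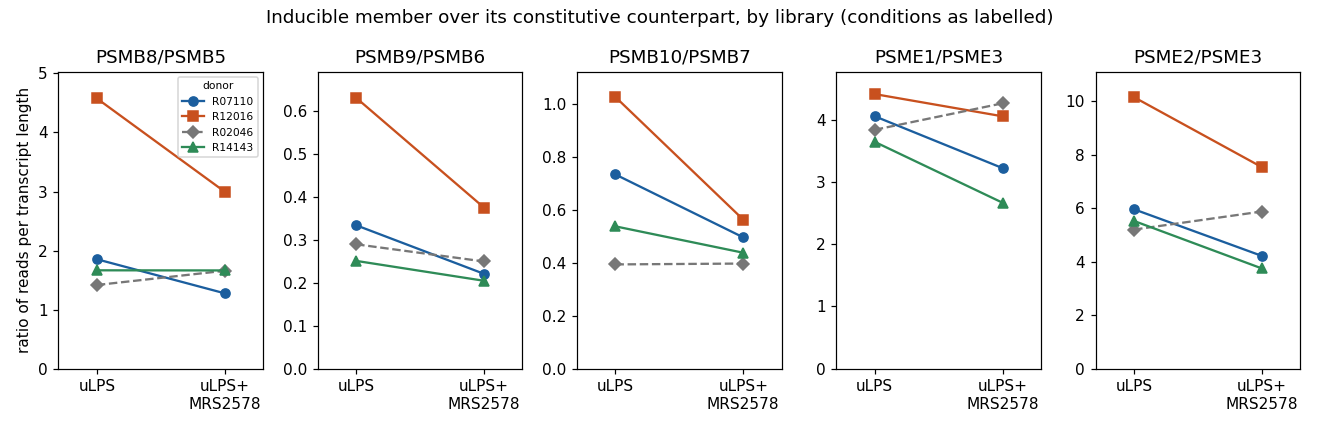
Ratio of reads per transcript length (y axis, from 0) of each inducible member to its constitutive counterpart with uLPS and uLPS+MRS2578 (x axis), with 1 line per donor and R02046, as labelled, dashed. The ratio of PSMB9 to PSMB6 was lower with MRS2578 in all 4 donors, and R12016 had the highest ratio with uLPS in every panel.

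Among constitutive genes of the 20S core, the 7 subunits of the alpha ring, which forms the gate of the barrel, all had a log2 fold change under 0 as labelled, with a median of -0.10 and a range of -0.18 to -0.02. With the R02046 libraries exchanged, 4 were under 0 and 3 above. Of the 12131 genes tested, 6322 were under 0 as labelled and 6047 with the exchange. PSMA6 had the lowest value of the ring. It was at 132, 167, 149 and 153 CPM with uLPS and 106, 127, 169 and 134 CPM with uLPS+MRS2578, a log2 fold change of -0.18 ± 0.12 as labelled (edgeR adjusted p = 0.881), -0.27 ± 0.08 with the R02046 libraries exchanged (adjusted p = 0.170) and -0.30 ± 0.10 without R02046 (adjusted p = 0.284). PSMA6 was the constitutive subunit with the lowest difference in R07110 and R12016 and with the highest in R02046 as labelled. PSMA7, the highest of the ring, was at 184, 170.2, 234 and 186 CPM and 197, 189, 195 and 178 CPM, a log2 fold change of -0.02 ± 0.10 (edgeR adjusted p = 0.991).

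The structural beta subunits PSMB1, PSMB2, PSMB3 and PSMB4, which have no active site, lay close to 0 as labelled, with log2 fold changes of -0.05 to 0.01 and a median of -0.02. All 4 lay above 0 with the exchange, with a median of 0.13, where 6084 of the 12131 genes tested lay above 0. PSMB1 was at 124, 124, 199 and 133 CPM with uLPS and 145, 157, 146 and 127 CPM with uLPS+MRS2578, and its uLPS library of R02046 stood above the others. Its log2 fold change was 0.01 ± 0.14 as labelled (edgeR adjusted p = 0.993). PSMB4 was at 128, 139, 178 and 156 CPM and 144, 156, 138 and 139 CPM, a log2 fold change of -0.05 ± 0.12 (edgeR adjusted p = 0.960). All 4 were lower with MRS2578 in R02046 as labelled. They were among the 27 of the 30 constitutive subunits that were lower there, where 6068 of the 12131 genes tested were.

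In the 19S particle, the 5 ATPases of the base that the files name, which unfold substrates and open the gate, had log2 fold changes of -0.12 to 0.07 with a median of 0.07. PSMC4 was at 81.8, 80.8, 104 and 91.6 CPM with uLPS and 92.1, 107, 88.1 and 88.5 CPM with uLPS+MRS2578 (0.07 ± 0.12 on the log2 scale, edgeR adjusted p = 0.945), and PSMC2 at 153, 165, 175 and 159 CPM and 141, 143, 169 and 146 CPM (-0.12 ± 0.09, edgeR adjusted p = 0.885). PSMC2 was slightly lower with MRS2578 in every donor as labelled. The sixth ATPase, PSMC6, has a row without a symbol in the files, so the rule did not take it; its 505 to 1314 counts gave a log2 fold change of -0.09 ± 0.11 (edgeR adjusted p = 0.930). PSMC3IP matches the rule by its symbol but encodes a meiotic recombination factor and no part of the proteasome. It was at 8.11 to 14.8 CPM with uLPS and 6.83 to 11.1 CPM with uLPS+MRS2578, a log2 fold change of -0.26 ± 0.14 (edgeR adjusted p = 0.878), and its exons overlap those of MLX on the opposite strand.

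The 11 non-ATPase subunits of the 19S particle, which bind and deubiquitinate substrates and hold the lid together, had log2 fold changes of -0.12 to 0.18 and a median of 0.00. PSMD2, a scaffold of the base, was the highest. It was at 433, 398, 472 and 485 CPM with uLPS and 498, 492, 487 and 552 CPM with uLPS+MRS2578, and it was the only member with a higher value with MRS2578 in 4 of 4 donors as labelled. Its log2 fold change was 0.18 ± 0.10 as labelled (edgeR adjusted p = 0.878), 0.16 ± 0.09 with the R02046 libraries exchanged (adjusted p = 0.427) and 0.23 ± 0.10 without R02046 (adjusted p = 0.394). PSMD4, a ubiquitin receptor, was the lowest, at 134, 149, 192 and 150.4 CPM with uLPS and 137, 146, 161 and 127 CPM with uLPS+MRS2578, a log2 fold change of -0.12 ± 0.10 (edgeR adjusted p = 0.901). With the R02046 libraries exchanged, 10 of the 11 non-ATPase subunits lay above 0, where 6084 of the 12131 genes tested did.

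The summed CPM of the modules placed these changes on the scale of the whole particle. The 5 inducible members summed to 883 CPM in R07110, 1550.5 CPM in R12016, 863 CPM in R02046 and 810.5 CPM in R14143 with uLPS, and to 665, 988, 865 and 646 CPM with uLPS+MRS2578. The constitutive subunits of the 20S core summed to 1623, 1805.5, 2170.3 and 1729.8 CPM with uLPS and to 1714, 1826.5, 1842 and 1635.5 CPM with uLPS+MRS2578. The 19S subunits summed to 2287, 2331, 2821 and 2443 CPM with uLPS and to 2426, 2501, 2633 and 2537 CPM with uLPS+MRS2578. The 19S sum was higher with MRS2578 in every donor except R02046, in which both the 20S and the 19S sums were lower as labelled.

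The other activators and the inhibitor had small differences. PSME4, the nuclear activator PA200, was at 137, 158, 118 and 134 CPM with uLPS and 126, 135, 141 and 162 CPM with uLPS+MRS2578, a log2 fold change of 0.04 ± 0.12 (edgeR adjusted p = 0.969). PSME3 was at 168, 177, 196 and 167 CPM and 170.2, 150.0, 181 and 187 CPM, a log2 fold change of -0.04 ± 0.10 (edgeR adjusted p = 0.961). Neither had one direction in R07110, R12016 and R14143. PSMF1, the inhibitor PI31, was at 50.9 to 100.2 CPM with uLPS and 49.4 to 83.7 CPM with uLPS+MRS2578.

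The 7 assembly chaperones, which pair the alpha subunits or hold the base ATPases before the particle closes, had log2 fold changes of -0.23 to 0.17 and a median of -0.01. PSMD10, also called gankyrin, was the highest, at 19.6, 22.7, 30.2 and 20.2 CPM with uLPS and 24.9, 29.1, 29.5 and 20.1 CPM with uLPS+MRS2578, a log2 fold change of 0.17 ± 0.12 (edgeR adjusted p = 0.897). PSMG4 was the lowest, at 6.79, 5.49, 10.5 and 5.39 CPM and 8.37, 5.06, 4.32 and 5.48 CPM, and its -0.23 ± 0.27 (edgeR adjusted p = 0.927) rested on R02046, in which the difference was -1.26 as labelled; without R02046 it was 0.09 ± 0.19. PSMA8, of the testis, and PSMB11, of the thymic cortex, had 0 counts in all 8 libraries, which allows up to 0.0914 CPM in the deepest library and 0.320 CPM in the shallowest, and did not pass the filter.

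Donors also differed in the level of the inducible members with uLPS alone. In the uLPS libraries, the SD of log2 CPM between donors was 0.68 for PSMB8, 0.56 for PSMB9, 0.44 for PSME2, 0.40 for PSMB10 and 0.16 for PSME1, a median of 0.44. The median over the constitutive subunits was 0.17, and over all genes tested 0.31. R12016 had the highest uLPS value of all 5 inducible members and also the largest difference in CPM between its libraries in each of them. As labelled, the within-donor difference varied less between donors than the level did for PSMB9, with an SD of 0.11 against 0.56, and for PSMB10, with 0.14 against 0.40. For PSME1 the SD of the difference was 0.18 against 0.16. These values hold for the labels: with the R02046 libraries exchanged, the SD of the difference was 0.46 for PSMB9, 0.33 for PSMB10 and 0.14 for PSME1.

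Per length of transcript, PSME2, PSMB8 and PSME1 had the highest mean levels of the 35 inducible and constitutive members with uLPS. They were at 331 ± 114 CPM per kb for PSME2, 254 ± 141 for PSMB8 and 197 ± 21.3 for PSME1 (mean ± SD, n = 4). PSMA7, at 188 ± 26.9 CPM per kb, and PSMB7, at 178 ± 34.0, came next, and PSMB10 was the 17th, at 115 ± 34.6, and PSMB9 the 33rd, at 48.5 ± 21.0. Of the 34 steps between neighbours in this order, 31 were no larger than the larger of the neighbours' SDs, so most of the order is not resolved by 4 donors. The lowest levels were those of PSMD12, at 33.4 ± 3.78, and PSMD11, at 23.8 ± 2.90 CPM per kb. With uLPS+MRS2578, PSME2 was at 252, PSMB8 at 179.9 and PSMB7 at 192 CPM per kb.

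**Figure D5:**
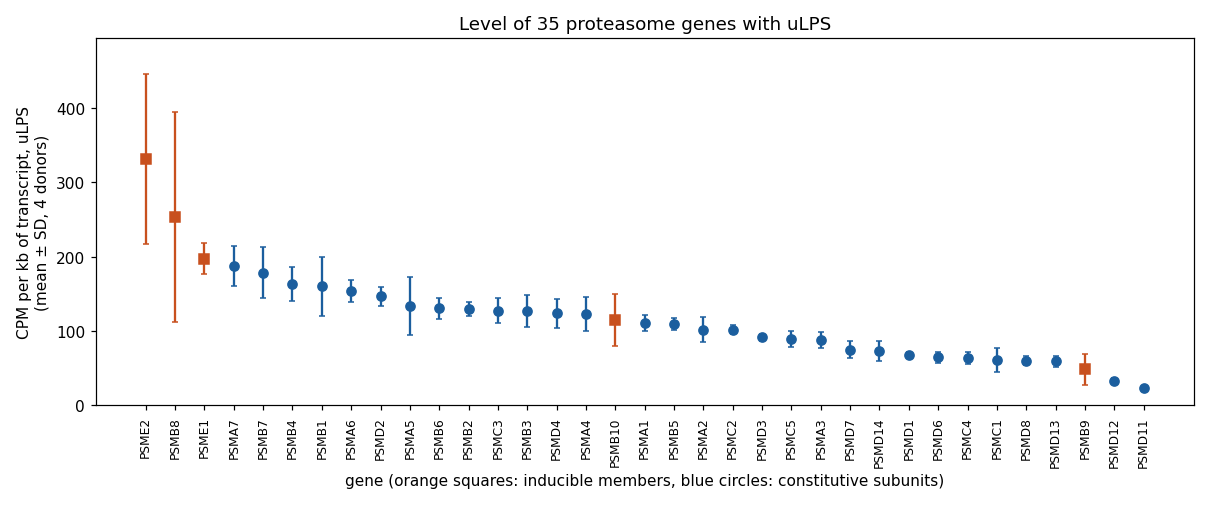
Mean level with uLPS in CPM per kb of transcript (y axis, from 0), with bars of ± SD over 4 donors, of the 5 inducible members (orange squares) and 30 constitutive subunits (blue circles), ordered by level (x axis). PSME2 and PSMB8 have the widest bars, and PSMB9 lies near the low end.

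Of genes that work with the proteasome, 42 were listed and 37 had a named row; TAP1, TAP2, ADRM1, DDI2 and ZFAND2A were not analysed here. No gene of the 4 lists had an adjusted p under 0.05 as labelled. Of the 12131 genes tested, 6322 had a log2 fold change under 0 as labelled. Among 9 partners without a PSM symbol, 6 were under 0 and 3 above, with a median of -0.02; SEM1, a small subunit of the lid, was at -0.16 ± 0.19, and AKIRIN2, which brings proteasomes into the nucleus, at -0.16 ± 0.13. Among 11 genes of the pathway by which NFE2L1 restores proteasome subunits when the proteasome is inhibited, 5 were under 0 and 6 above, with a median of 0.02. NFE2L2, a related factor of the antioxidant response, was at 379, 432, 226 and 408 CPM with uLPS and 238, 237, 299.9 and 255 CPM with uLPS+MRS2578, lower in every donor except R02046 as labelled. Its log2 fold change was -0.46 ± 0.21 as labelled (edgeR adjusted p = 0.878), -0.66 ± 0.10 with the R02046 libraries exchanged (adjusted p = 0.0390) and -0.74 ± 0.10 without R02046 (adjusted p = 0.124). It was the 1 gene of these lists with an adjusted p under 0.05 with the exchange. SYVN1, a ubiquitin ligase of the endoplasmic reticulum, was at 0.31 ± 0.13 (edgeR adjusted p = 0.878) and higher with MRS2578 in 4 of 4 donors as labelled.

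Among 8 shuttle factors, which carry ubiquitinated proteins to the proteasome, and ZFAND proteins, 3 were under 0 and 5 above, with a median of 0.03. As labelled, 6322 of the 12131 genes tested were under 0. SQSTM1, the autophagy receptor p62, was at 616, 572, 674 and 809 CPM with uLPS and 1214, 1666, 603 and 671 CPM with uLPS+MRS2578, higher in R07110 and R12016 and lower in the others as labelled; its log2 fold change was 0.52 ± 0.32 (edgeR adjusted p = 0.878) as labelled, and its exons overlap those of MGAT4B on the opposite strand. It was 0.60 with the R02046 libraries exchanged and, as labelled, 0.18 without R12016, 0.76 without R02046 and 0.79 without R14143.

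Among 9 genes of class I peptide loading and of the factors that induce it, 7 were under 0 and 2 above, with a median of -0.20 as labelled, -0.29 with the exchange and -0.41 without R02046. Of the 12131 genes tested, 6322 were under 0 as labelled, so a count over 9 chosen genes does not by itself set this list apart. IRF1, a transcription factor of the interferon response, was at 97.4, 227, 67.0 and 136 CPM with uLPS and 65.6, 146, 81.7 and 73.2 CPM with uLPS+MRS2578, lower in R07110, R12016 and R14143. Its log2 fold change was -0.46 ± 0.19 as labelled (edgeR adjusted p = 0.878), -0.60 ± 0.11 with the R02046 libraries exchanged (adjusted p = 0.0599) and -0.70 ± 0.11 without R02046 (adjusted p = 0.133). NLRC5, the transactivator of class I genes, was at 46.6, 103, 23.5 and 33.6 CPM and 31.3, 43.1, 29.6 and 32.7 CPM, a log2 fold change of -0.39 ± 0.25 (edgeR adjusted p = 0.878) as labelled, -0.56 ± 0.18 with the R02046 libraries exchanged (adjusted p = 0.192) and -0.63 ± 0.23 without R02046 (adjusted p = 0.328). As labelled and without R12016, it was -0.10 for NLRC5. Both had their highest uLPS value in R12016, as did the 5 inducible members.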

How the data were processed

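RNA of 8 libraries, from 4 donors under 2 conditions, was analysed. The authors deposited whole-number counts of reads per Ensembl gene, without normalization. Per the paper's methods, fastp trimmed the reads, STAR aligned them to Mmul_10 and HTSeq counted them; the submitters' processing notes name Trimmomatic 0.30, TopHat2 2.0.14, SAMtools 1.3 and HTSeq 0.6.1p1 instead, also with Mmul_10. The library kit was directional, so the reads carry strand, but neither the annotation release nor whether counting used the strand is given in the sources used here, so genes that overlap on opposite strands have uncertain counts.

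The counts were analysed in R 4.3.3 with edgeR 4.0.16, after filterByExpr on the condition (minimum count 10) and TMM scaling. All genes were fitted with the donor as a block and tested with the quasi-likelihood F-test, with Benjamini-Hochberg adjustment and a threshold of 0.05. The labels give the donor, and the libraries of a donor come from 1 animal; their deviations from the condition means correlated over genes (r = 0.602 for R07110, 0.552 for R12016, 0.458 for R02046, 0.562 for R14143). The SE was taken as the absolute log2 fold change over the root of F. Log2 CPM has a prior count of 2. Per donor, the inducible minus constitutive difference is the median log2 CPM difference of 5 members minus that of 30. No 2 libraries were duplicates (chi-square per degree of freedom of at least 20.6). The fit was tested on simulated data.

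The genes named with values are the inducible members, PSMB5, PSMB6 and PSMB7, the genes with the highest and the lowest log2 fold change of each role group, members that failed the filter, and of each list of other genes the 2 with the largest absolute log2 fold change and any with an adjusted p under 0.05; others that are named were chosen after their values were seen. The result of 1 gene that this rule names is not reported here. The members and lists were chosen with earlier results of these data known. Alternatives were exchanged R02046 libraries, each donor left out, no block, DESeq2 1.42.0 size factors and Wald test, edgeR's likelihood ratio test, no filter, another prior count and other summaries of the contrast.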

Additional observations from a re-analysis of the deposited data

Results flagged for a closer look

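In 5 of 64 groups of 4 values, a value stood apart from the others by Dixon's test at the 95% level, and chance flags about 1 in 20 groups. With uLPS, R12016 was high in PSMB8, at 593.7 CPM, and in PSME2, at 415.5 CPM. R02046 was high in PSMB1 with uLPS, at 198.8 CPM, and in PSMC2 with uLPS+MRS2578, at 169.4 CPM. R14143 was high in PSMD2 with uLPS+MRS2578, at 551.8 CPM. The conditions of the R02046 values are those of the labels.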

How the results depend on the processing

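The number of proteasome genes with an adjusted p under 0.05 was 0 under every alternative run, and without the replicate block it was 0 as well, with 0 members at an unadjusted p under 0.05 against 4 with the block. The inducible minus constitutive difference kept its direction, at -0.18 without R12016 to -0.50 without R02046 and at -0.43 with the R02046 libraries exchanged; it was -0.39 with PSMB8, PSMB9 and PSMB10 only and -0.34 with means over members. Alternatives chosen after seeing the data gave -0.32 with PSMC6 and -0.38 with the exchange and means. Members at an unadjusted p under 0.05 numbered 8 with the exchange, 7 without R02046, and 1 without R12016 and 2 without R07110 or R14143. Over all genes tested, 9.59% were lower and 6.86% higher at that threshold with the exchange, and 7.86% and 5.73% without R02046. For the other alternatives this share is not given, so their counts do not set the members apart from other genes.

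With the exchange, the log2 fold change turned to 0.065 for PSMB6, 0.11 for PSMA7, 0.13 for PSMB4, 0.0075 for PSMD4, 0.35 for PSMG4, -0.085 for PSME4, 0.013 for PSME3 and 0.13 for SEM1. Without the replicate block, that of PSMB1 turned to -0.010. Leaving out each donor gave -0.089 to 0.17 for PSMB1, -0.033 to 0.18 for PSMC4, -0.11 to 0.027 for PSME3, -0.087 to 0.026 for PSMB6, -0.068 to 0.062 for PSMA7, -0.13 to 0.053 for PSMB4, -0.44 to 0.089 for PSMG4 and -0.037 to 0.14 for PSME4. None of these genes was called under any setting, and the cause was not tested. Of the remaining single-gene values, 269 kept their direction and their side of the threshold, and NFE2L2 passed it with the exchange. By over 1.5 times but with 1 direction, leaving out a donor also moved PSMB7 (0.025 without R07110, 0.047 without R12016, 0.25 without R02046), PSMA6 (-0.11 without R12016, -0.30 without R02046), PSMD10 (0.10 without R07110), PSMD4 (-0.076 without R02046), AKIRIN2 (-0.27 without R02046, -0.036 without R14143), SEM1 (-0.36 without R07110, -0.24 without R12016, -0.018 without R02046 or R14143), SYVN1 (0.20 without R12016), IRF1 (-0.70 without R02046) and NFE2L2 (-0.74 without R02046).

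With 4 donors and 1 library of each condition per donor, differences of the size seen in the inducible members did not pass the adjustment over all genes. Their size depends on which R02046 library carries which condition, and on R12016, without which the inducible minus constitutive difference was -0.18 as labelled.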
